A study of Homo sapiens with 9 samples.

Results

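The cells described here are MDA-MB-231 cells that stably carried a nonspecific (NS) shRNA, the control hairpin of a series in which the same line also received hairpins against ASAH1, the gene of lysosomal acid ceramidase. Of the 9 libraries, the 3 with NS shRNA are described, numbered NS 1, NS 2 and NS 3, and the series describes them as biological replicates. A gene was kept when its mean normalized count over these 3 libraries was at least 10, which left 14140 of 26485 genes. Normalized counts are reads scaled by a size factor of their library, and they compare libraries within a gene. To compare genes with each other, they were divided by the length of the gene's annotated exons in kilobases, a quantity referred to as the per-kb level. Orders by this level depend on the length chosen. With the canonical transcript in place of all annotated exons, 46.2% of the kept genes with both lengths were over 1.5 times higher, and 32 of the 40 gene lists with a member above the limit had the same highest gene. No comparison with the ASAH1 hairpins was made. The line was grown in DMEM with 10% fetal bovine serum, all control libraries carry 1 nonspecific hairpin, and neither uninfected cells nor a second control hairpin is among the libraries, so what the hairpin or its vector adds to the levels cannot be told apart from the line itself. Whether the stable cells were a pool or a clone is not given in the sources used here.

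MDA-MB-231 is an established human line from a metastatic breast adenocarcinoma. It is classed as triple-negative, meaning that it lacks the estrogen receptor, the progesterone receptor and amplified HER2, and within that class as mesenchymal-like, because it has exchanged much of its epithelial adhesion machinery for vimentin filaments and a motile shape. It is known to carry an activating mutation of BRAF and a deletion at the CDKN2A locus, and to secrete inflammatory cytokines.

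The 3 libraries held 30989598, 32929801 and 34867548 reads on genes. At that depth 17369, 17406 and 18471 genes had at least 1 read. The number of genes with a read did not rise evenly with depth. It was nearly the same in the shallowest and the middle library, 17369 and 17406, and higher in the deepest, NS 3, at 18471. Whether depth accounts for the higher number in NS 3 was not tested. A total of 6904 genes had 0 reads in all 3 libraries, and 5441 had reads but a mean below 10. A count of 0 reads is compatible with up to 3 reads in a library of that depth, a limit that covers counting error only, so a gene with 0 reads was not detectable at this depth rather than shown to be absent. The lowest kept gene lay at a mean of 10 and the highest gene left out at a mean of 10, so the limit falls within a continuous range of levels. The kept genes took up 99.96% of the normalized reads. Of the kept genes, 12779 matched a protein-coding gene of the annotation and 675 a long noncoding RNA.

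Reads were spread over many genes, with cytoskeletal, glycolytic and lysosomal genes at the top. The 10 highest genes held 3.64%, 3.46% and 3.32% of the normalized reads in NS 1, NS 2 and NS 3, the 100 highest held 14% on the mean of the libraries, and it took 1275 genes to reach 50% of them. ACTB, cytoplasmic beta-actin, was the highest gene, with normalized counts of 185558, 177261 and 168009. It was followed by CTSD, the lysosomal aspartic protease cathepsin D, at 144427, 140052 and 132621, and by ENO1, the glycolytic enolase, at 140461, 138119 and 133821. All 3 genes were highest in NS 1 and lowest in NS 3. AKR1B1, an aldo-keto reductase that turns glucose into sorbitol, had a mean normalized count of 121992 ± 8166 (SD, n = 3), ahead of gamma-actin (ACTG1, 111157 ± 3499 (SD, n = 3)) and pyruvate kinase (PKM, 104290 ± 3814 (SD, n = 3)).

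Of the other 19 of the 25 highest genes, those named here belonged to few kinds. FLNA, MYH9, TUBB and VIM build or crosslink the cytoskeleton, and their mean normalized counts ran from 57065 for MYH9, nonmuscle myosin heavy chain, to 78203 for FLNA, the actin crosslinker filamin A. LDHA and GAPDH are glycolytic enzymes. HSPA8, HSP90AB1 and CALR are chaperones of the cytosol and the endoplasmic reticulum, FTL is the ferritin light chain and S100A6 a small calcium-binding protein. PSAP is the precursor of the saposins, which help lysosomal enzymes, acid ceramidase among them, reach their lipids, and APLP2 is a membrane relative of the amyloid precursor. 3 of the 25 are secreted regulators. IGFBP4 binds insulin-like growth factors and had a mean normalized count of 83669 ± 7558 (SD, n = 3). CYR61 is a matrix protein that binds integrins and had 71080 ± 1939.5 (SD, n = 3). CSF1, the growth factor of macrophages, had 62419 ± 2323 (SD, n = 3), with 59858, 63009 and 64390.5 in the 3 libraries. MALAT1 and NEAT1 are nuclear long noncoding RNAs. Among the 25, MALAT1 varied most, with a coefficient of variation (CV, the SD divided by the mean) of 30.2%.

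**Figure D1:**
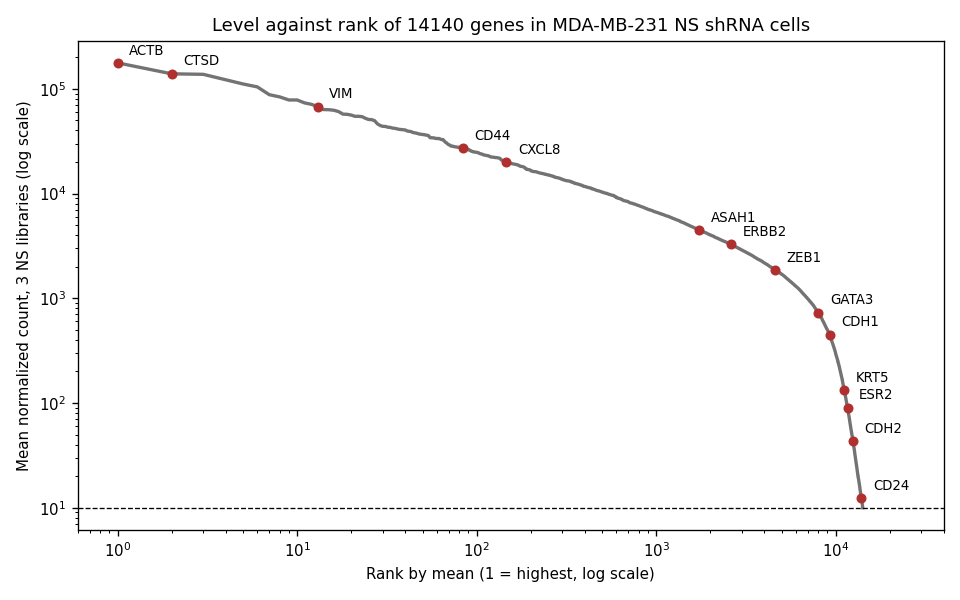
Mean normalized count over the 3 NS libraries (vertical axis, log scale) against the rank of the gene (horizontal axis, log scale) for the 14140 kept genes, as a grey line, with 14 genes marked by red points and the limit of 10 dashed. The line falls slowly from ACTB to about the rank of ZEB1 and steeply below CDH1, and CD24 sits just above the limit.

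Per kilobase the order shifted toward short transcripts, and 14 of the 25 highest genes stayed among the 25 highest. TMSB10, which binds free actin monomers, led with per-kb levels of 99572, 98351 and 74881, followed by FTL with 75253, 76428 and 66467 and S100A6 with 65312, 56086 and 55595. Each of these short genes was lowest in NS 3. IER3, an early-response gene of stress and growth factor signaling, reached a per-kb level of 26411 ± 568 (SD, n = 3). S100A4, a motility-associated calcium-binding protein, had 31369.5 ± 3868 (SD, n = 3).

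The receptors that define the clinical subtype were checked first. ESR1, the estrogen receptor alpha, had 0, 1 and 2 reads in NS 1, NS 2 and NS 3, and PGR, the progesterone receptor, 2, 1 and 2. Both hormone receptors were at the edge of detection in every library, and neither was above the limit. ESR2, the estrogen receptor beta, had 92, 71 and 113 reads, a mean normalized count of 90.1 ± 18.1 (SD, n = 3). ERBB2, which encodes HER2, was expressed, with normalized counts of 3181, 3388 and 3243 and a per-kb level of 317 ± 10.3 (SD, n = 3). That level is above the median per-kb level of all kept genes, 178. Receptor protein and gene copy number were not measured.

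Luminal genes, which mark milk-duct secretory cells, were present in part. Of 18 luminal markers, 12 were above the limit, against 53.4% of all genes of the table and 67.1% of the matched protein-coding genes. The same shares are the background of all later counts of list members above the limit. The simple keratins, filament proteins of one-layered epithelia, were high. KRT7 had normalized counts of 25843, 24918 and 22291, KRT19 of 11144, 10886 and 8925 and KRT18 of 12854, 12688 and 11092. All 3 were lowest in NS 3. The secretory-pathway factor XBP1 had a mean of 3412 ± 288 (SD, n = 3) and the zinc transporter SLC39A6 one of 3534 ± 135 (SD, n = 3). GATA3, the zinc-finger factor of luminal identity, was at 735, 703 and 749.7, a per-kb level of 215. FOXA1, the factor that opens chromatin for steroid receptors, had 2, 1 and 0 reads, and the estrogen-responsive TFF1 had 0, 1 and 6. PIP and ELF5 had 0 reads in all 3 libraries.

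Of 18 basal markers, which label the outer, matrix-attached layer of the gland, 14 were above the limit, led by genes of the attachment complex to the basement membrane. LAMB3, a chain of laminin-332, had a per-kb level of 4943 ± 302 (SD, n = 3), and the integrin chains ITGA6 and ITGB4, its receptor, had 2197 ± 187 (SD, n = 3) and 1552 ± 81.2 (SD, n = 3). The basal keratins were low in comparison. KRT5 had normalized counts of 151, 160.0 and 88.6, KRT6A of 72.2, 55 and 22.2 and KRT17 of 34.5, 26.5 and 14.8, while KRT14 had 7, 1 and 9 reads. TP63, the master factor of basal cells, had a mean of 44.4 and the membrane protease MME had 0 reads in all 3 libraries. KRT5, KRT6A and KRT17 were each lowest in NS 3.

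Epithelial junction genes were split by function. Of 28, 23 were above the limit. CDH1, E-cadherin, the adhesion protein of adherens junctions, had normalized counts of 399.8, 475 and 468, a mean of 448 ± 41.6 (SD, n = 3) and a per-kb level of 73.7. NS 1 had the lowest CDH1 value. Claudins and desmosome parts were higher, with per-kb levels of 1506 ± 98.6 (SD, n = 3) for CLDN4 and 1151 ± 22.1 (SD, n = 3) for JUP, plakoglobin, and SPINT2, an inhibitor of membrane serine proteases, reached 2752 ± 319.6 (SD, n = 3). EPCAM, the epithelial adhesion molecule, had a per-kb level of 309 ± 24.2 (SD, n = 3). The transcription and splicing factors that hold the epithelial state were at the edge of detection. ESRP1, the epithelial splicing regulator, had 1, 0 and 2 reads, GRHL2 4, 5 and 5, OVOL1 2, 1 and 1, OVOL2 3, 1 and 5 and the vesicle GTPase RAB25 0, 0 and 1. ESRP2, the relative of ESRP1, differed from it, with normalized counts of 445, 405 and 397.

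Mesenchymal genes stood higher than the junction genes at the top of their lists. Of 25, 20 were above the limit. VIM, vimentin, the filament protein of mesenchymal cells, had normalized counts of 69005, 67112 and 67037, a CV of 1.65%. Its per-kb level was 3.18, 3.14 and 3.58 times that of KRT18 in the 3 libraries, a mean ratio of 3.3 ± 0.246 (SD, n = 3), with the highest ratio in NS 3, where KRT18 was lowest. With the longest annotated transcript as the length, the ratio was 4.36. CAV1, the coat protein of caveolae, had a per-kb level of 9819 ± 565 (SD, n = 3) and AXL, the receptor of GAS6, one of 6539.8 ± 183 (SD, n = 3). FN1, fibronectin, had normalized counts of 8632, 8989 and 10349.

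Only some of the factors known to drive the mesenchymal state were detected above the limit. ZEB1, a repressor of CDH1, had normalized counts of 1667, 1841 and 2090.3 and SNAI2 of 884, 863 and 984. SNAI1 had a mean of 28.1 ± 7.44 (SD, n = 3) and ZEB2 of 367 ± 40.3 (SD, n = 3). TWIST1 had 3, 3 and 4 reads, PRRX1 6, 1 and 0 and FOXC2 0 in all 3. Among cadherins, N-cadherin (CDH2) had normalized counts of 35.6, 52 and 42.5, below CDH1, while CDH11, the cadherin of osteoblasts and fibroblasts, had 1859, 1985 and 2075. The per-kb level of CDH11 was 2.02 ± 0.108 (SD, n = 3) times that of CDH1, and 3.15 times with the canonical transcripts.

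**Figure D2:**
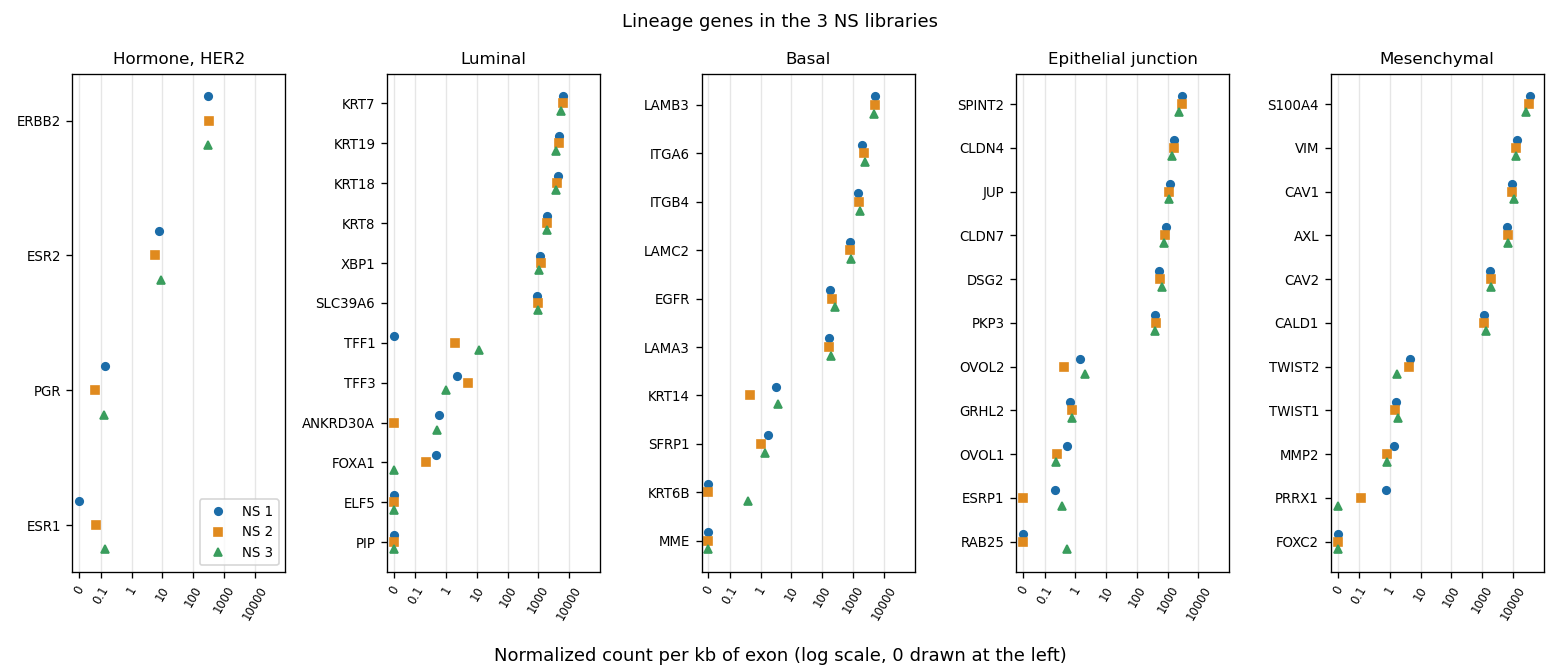
Normalized count per kilobase of exon (horizontal axes, log scale, with 0 drawn at the left edge) of lineage genes in NS 1 (blue circles), NS 2 (orange squares) and NS 3 (green triangles). Each panel holds 1 list, first its members with the highest per-kb level and then every member with a mean normalized count below 10. The upper genes of each list coincide across the libraries on this scale, and the lower genes rest on 0 to 9 reads.

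Genes used to mark stem-like breast cancer cells were dominated by CD44, the hyaluronan receptor. CD44 had normalized counts of 26698, 25762 and 28779, whereas CD24, a small surface glycoprotein, had 19, 7 and 11 reads and a mean just above the limit. ALDH1A3, a retinal dehydrogenase, had a mean normalized count of 1575 ± 122 (SD, n = 3) and its relative ALDH1A1 had 0, 6 and 0 reads. KLF4 reached a mean of 2021 ± 96.1 (SD, n = 3) and PROCR one of 777 ± 75.3 (SD, n = 3). THY1 and NANOG had 0 reads in all 3 libraries.

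Markers of other cell types were read as a check of the culture. PTPRC, the pan-leukocyte phosphatase CD45, had 8, 7 and 2 reads, and CD3E and CD3D had 0 in all 3 libraries. Of 9 genes on the leukocyte list, CD68 and CD14 were above the limit, with means of 2289.9 ± 246 (SD, n = 3) and 969 ± 97.9 (SD, n = 3). The list also holds HBB, a hemoglobin gene of red cells, with 4, 2 and 1 reads. Of 8 endothelial markers, ESAM, KDR and PECAM1 were above it and CDH5 had 2, 0 and 3 reads. Of 8 fibroblast and mural markers 5 were above it, led by PDGFRB with a mean of 889 ± 88.2 (SD, n = 3), and DCN and POSTN had 0 reads. PLIN1 was the adipocyte marker above the limit, at a mean of 22.9, and ADIPOQ, FABP4 and LEP had 0 reads. Of 6 melanocyte markers, MITF and PMEL were above the limit and TYR had 2, 1 and 0 reads. The summed normalized counts of the leukocyte list, nearly all of them CD68 and CD14, were 3369, 3038 and 3422.

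Receptor tyrosine kinases relay growth factors to RAS and PI3K. Of 54, 30 were above the limit. AXL stood first, with a per-kb level of 6539.8 ± 183 (SD, n = 3) and normalized counts of 32491, 34171 and 34065. EPHA2, an ephrin receptor, followed with a per-kb level of 3378 ± 97.7 (SD, n = 3), and MET, the receptor of hepatocyte growth factor, with 1446 ± 129 (SD, n = 3). EPHB4, DDR1, which binds collagen, and ERBB2 came next, with per-kb levels of 561 ± 17 (SD, n = 3), 521 ± 20.5 (SD, n = 3) and 317 ± 10.3 (SD, n = 3). The same 6 genes led with the length of the canonical transcript. EGFR, the epidermal growth factor receptor, had normalized counts of 2791, 3415 and 4241, a CV of 20.9%. EGFR was highest in NS 3 and lowest in NS 1, and its exon length of 15941 bases puts it in the class of longest genes described below, whose median was also higher in NS 3. ERBB3 had a mean normalized count of 309 ± 23.1 (SD, n = 3) and ERBB4 1, 1 and 6 reads. KIT had 1, 0 and 1 reads, FLT3 1, 0 and 2, RET 0, 1 and 1 and ALK 0, 1 and 0, all tyrosine kinases of other lineages, and EPHA1 had 0 reads.

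Some of the growth factors for these receptors were transcribed by the same cells. Of 41 ligands, 31 were above the limit. CSF1 led with a per-kb level of 11917 ± 444 (SD, n = 3), while its receptor CSF1R had a mean normalized count of 132 ± 24.7 (SD, n = 3). GAS6, the ligand of AXL, had a per-kb level of 2668 ± 144 (SD, n = 3), and the other ligand of that family, PROS1, one of 323 ± 19.5 (SD, n = 3). The EGFR ligands HBEGF, AREG and TGFA had per-kb levels of 2229, 702 and 483, in that order in every library. VEGFB, VEGFC and VEGFA, which act on endothelial cells, had per-kb levels of 3295, 1818 and 679.6, and VEGFA stood above VEGFC with the canonical transcript, at 2718 and 2105. HGF, the ligand of MET, had 0 reads in all 3 libraries, as did IGF2, and FGF2 had 2, 2 and 3 reads.

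Nuclear receptors are transcription factors switched by steroids, retinoids, lipids and other small molecules. Of 46 human members, 29 were above the limit, 16 had reads but a mean below 10, and NR0B2 had 0 reads. In descending order of per-kb level, the orphan receptors NR2F2 and NR2F6 led, with 1448 ± 36.3 (SD, n = 3) and 1352 ± 131 (SD, n = 3). The ranges of this pair over the libraries overlapped. ESRRA (928), RXRB (766) and the oxysterol receptor NR1H2 (712) followed in per-kb level, with ranges that did not overlap those of their neighbours. NR3C1, the glucocorticoid receptor, had normalized counts of 4697, 5134 and 5493 and a per-kb level of 558 ± 43.5 (SD, n = 3), and could not be ordered against NR1D2 (535), a clock repressor, and PPARD (524), whose ranges overlapped in turn. Next came a group whose neighbours overlapped, RARA, RXRA, RARG and NR1D1, followed by NR2C2 and NR2C1, with per-kb levels from 243 down to 168. Then came the oxysterol receptor NR1H3 (126), PPARG, the adipogenic receptor (119.9), THRA, a thyroid hormone receptor (119), and VDR, the vitamin D receptor (117). PPARA, NR2F1, NR3C2, NR4A2, NR6A1 and THRB had per-kb levels between 66.2 and 12.9, and ESR2, HNF4G, NR4A1, RARB and RORA, at 7.55 down to 1.48, closed the list above the limit. With the canonical transcript as the length, 10 of the 29 were over 1.5 times higher, NR1H2 (1574) came second behind NR2F2 (1774), and PPARG (809.9) came sixth, so the order holds for exon length only. With exon length, among the 28 neighbour pairs above the limit, the ranges of 15 overlapped and those of 13 did not.

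The receptors with reads but a mean below 10 were NR2E3, RXRG, NR4A3, NR5A1, ESRRB, NR2E1, NR5A2, ESRRG, NR1I3, HNF4A, NR0B1, PGR, RORB, NR1H4, ESR1 and NR1I2. RXRG, a retinoid partner receptor, had 7, 2 and 1 reads and NR4A3 had 8, 6 and 9, and the order among these 16 rests on single reads.

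**Figure D3:**
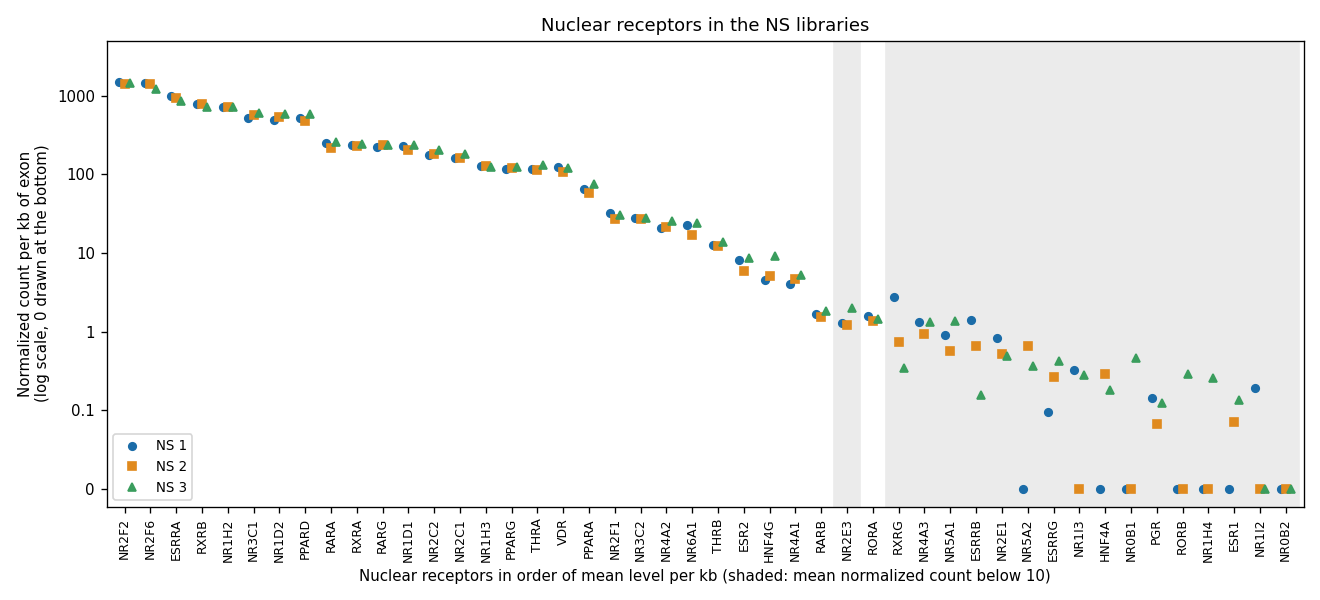
Normalized count per kilobase of exon (vertical axis, log scale, with 0 drawn at the bottom) of the 46 nuclear receptors in descending order of mean level, in NS 1 (blue circles), NS 2 (orange squares) and NS 3 (green triangles), with receptors of mean normalized count below 10 shaded. Per-kb levels fall from 1448 for NR2F2 to 1.48 for RORA, and in the shaded part the libraries scatter over the range set by 0 to 9 reads.

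Integrins bind the matrix and laminins. Of 26, 17 were above the limit, led by ITGA3 with a per-kb level of 4459 ± 113 (SD, n = 3), and by ITGA6, ITGB1, the shared beta chain (2007 ± 229.6 (SD, n = 3)), and ITGB5 (1749.7 ± 38.5 (SD, n = 3)). ITGAV, the chain that pairs with ITGB5, had 348 ± 36 (SD, n = 3). Leukocyte chains were near 0, with 0, 0 and 3 reads for ITGAL and 0, 0 and 1 for ITGA4. Among 31 matrix proteases and inhibitors, 19 were above the limit. The plasminogen activators were high, with per-kb levels of 6959 ± 101 (SD, n = 3) for the protease PLAU and 2958 ± 97 (SD, n = 3) for PLAT. MMP14, a membrane-bound collagenase, had a per-kb level of 3369.5 ± 101 (SD, n = 3), 0.514 ± 0.0143 (SD, n = 3) times that of its regulator TIMP2. With the canonical transcripts it was 0.377 times that of TIMP2. The secreted gelatinases were low, with 6, 4 and 4 reads for MMP2 and a mean normalized count of 26 ± 6.68 (SD, n = 3) for MMP9. MMP3 and MMP10 had 0 reads in all 3 libraries.

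Chemokines attract leukocytes. Of 38, 13 were above the limit and 16 had 0 reads in all 3 libraries, so the high ones were few. The neutrophil chemokine CXCL8 had normalized counts of 19382, 20796 and 20037 and CXCL1 of 11671, 11323 and 11254. CCL2, which attracts monocytes, had 6352, 6249 and 6495. All 3 varied by less than 10% between libraries. CXCL2 had a mean normalized count of 1728 ± 60.5 (SD, n = 3) and CXCL3 of 357 ± 27.8 (SD, n = 3), although both are close relatives of CXCL1 and lie beside it on chromosome 4. The per-kb level of CXCL1 was 6.78 ± 0.117 (SD, n = 3) times that of CXCL2 and 52.4 ± 5.25 (SD, n = 3) times that of CXCL3, and 6.27 and 29.3 times with the canonical transcripts. Reads that fit more than 1 of these copies may have been left uncounted. CXCL9, CXCL12, CCL3 and CCL4 had 0 reads.

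The 250 bases upstream of the RefSeq start (build GRCh38.p14) of these 4 chemokines are shown 5′ to 3′ in the direction of the gene, because 3 of them share their start-proximal letters while their levels differ. Capitals mark matches to the NF-kB consensus on either strand, to TGACTCA or TGAGTCA, which is the AP-1 site, and to TATAAA. CXCL1 lies at chr4:73869143-73869392 on the plus strand, CXCL2 at chr4:74099196-74099445 and CXCL3 at chr4:74038690-74038939 on the minus strand, and CXCL8 at chr4:73740319-73740568 on the plus strand.
CXCL1: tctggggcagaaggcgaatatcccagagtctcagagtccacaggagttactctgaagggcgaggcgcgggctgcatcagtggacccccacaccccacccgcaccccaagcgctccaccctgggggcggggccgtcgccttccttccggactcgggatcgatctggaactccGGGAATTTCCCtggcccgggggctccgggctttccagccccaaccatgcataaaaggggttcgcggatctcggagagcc
CXCL2: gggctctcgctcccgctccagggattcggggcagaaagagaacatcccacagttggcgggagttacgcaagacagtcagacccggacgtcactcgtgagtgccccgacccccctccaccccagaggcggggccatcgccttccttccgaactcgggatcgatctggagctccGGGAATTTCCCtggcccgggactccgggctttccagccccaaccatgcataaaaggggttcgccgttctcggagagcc
CXCL3: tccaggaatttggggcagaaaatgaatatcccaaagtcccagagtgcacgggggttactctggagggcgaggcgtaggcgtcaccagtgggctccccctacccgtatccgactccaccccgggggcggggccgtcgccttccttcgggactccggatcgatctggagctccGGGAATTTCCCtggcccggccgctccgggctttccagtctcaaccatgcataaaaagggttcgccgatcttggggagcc
CXCL8: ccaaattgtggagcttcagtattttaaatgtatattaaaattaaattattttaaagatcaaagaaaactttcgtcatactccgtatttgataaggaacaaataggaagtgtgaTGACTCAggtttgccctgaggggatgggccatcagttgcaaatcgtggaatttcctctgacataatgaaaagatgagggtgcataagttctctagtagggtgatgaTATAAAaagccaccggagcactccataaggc

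CXCL1, CXCL2 and CXCL3 held the same NF-kB match, 79, 78 and 79 bases before the start counted to its first base, with the reverse-strand match overlapping it by all but 1 base. Their mean normalized counts were 11416, 1728 and 357, so the same match, at distances within 1 base of each other, went with 3 different levels. CXCL8 held no match to this strict consensus in the window, which says only that these letters are not there, and held 1 TGACTCA and 1 TATAAA. Of 28 chemokines with an upstream sequence, 9 held an NF-kB match, 6 of the 9 above the limit and 3 of the 19 below it. Of all 16131 upstream sequences of the same length, 5.54% held it and 3.43% held an AP-1 site.

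Over all genes, the letters upstream of the start changed with the level in these cells. GGGCGG, searched on both strands, was present in 22.1% of the upstream sequences of genes with 0 reads, 52.4% at means from 10 to 100, 71.2% from 1000 to 10000 and 75.6% at 10000 or more. TATAAA, searched on the gene's strand, was present in 14.1% of those with 0 reads, 2.66% from 1000 to 10000 and 7.07% at 10000 or more, where it was again more frequent than in the class below. CCAAT, searched on both strands, stayed between 31.2% and 36.2% in all classes. The median number of CG pairs in the 250 bases was 3 for genes with 0 reads and 24 for the highest class, and the classes also differ in base composition, with a median GC content of 49.6% and 66.4%.

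Interleukins and colony-stimulating factors were likewise made by few genes at high levels. Of 37, 20 were above the limit. CSF1 was the highest. CSF2, GM-CSF, had normalized counts of 3261, 3172 and 2875, IL1A 3781, 3881 and 4133 and IL1B 4349, 4319 and 4270.1. These interleukin-1 genes are inducers of inflammation, and IL6, another, had 3429.6, 3420.1 and 3673. LIF, a relative of IL6 in signaling, had a mean of 1936 ± 106 (SD, n = 3), and TNF one of 24.5 ± 1.41 (SD, n = 3). IL2, IL4, IL5 and IL13, cytokines of T cells, had 0 reads. All 12 NF-kB subunits and inhibitors were above the limit. The inhibitor NFKBIA had a per-kb level of 3082 ± 173 (SD, n = 3), the subunits RELA and NFKB2 1052 ± 62.1 (SD, n = 3) and 892 ± 46.2 (SD, n = 3), and REL 8.35 ± 2.53 (SD, n = 3). REL varied most in the list, with a CV of 30.3%, from normalized counts of 120.4, 116 and 193.

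The 19 genes of the RAS, RAF, MEK and ERK chain were all above the limit, with a median per-kb level of 645 against 178 over all kept genes. RRAS, HRAS and NRAS had per-kb levels of 2014, 1428 and 1337, and the kinases MAP2K2 and MAPK3 1297 and 418. BRAF had normalized counts of 254, 294 and 308, and allele-specific counts were not made. BRAF and NF1, a RAS inactivator, were near the bottom per kilobase, at 12.2 and 28.8, with annotated exons of 23433 and 41150 bases that make these values depend on the transcript used.

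Genes that read out ERK activity were expressed throughout. All 18 were above the limit, with a median per-kb level of 587 and a median CV of 4.04%, against 6.92% over all kept genes and 5.25% over those with means from 1000 to 10000. IER3 led. FOSL1, an AP-1 subunit, had normalized counts of 10809, 10498 and 11160.5, CCND1, cyclin D1, 18879, 18894 and 19555, and PHLDA1 23072, 22522 and 21066. The phosphatases that switch off ERK and its relatives, DUSP5, DUSP4 and DUSP6, had per-kb levels of 1538 ± 62 (SD, n = 3), 1163 ± 23.2 (SD, n = 3) and 711 ± 11.6 (SD, n = 3). Among immediate early genes, which rise within minutes of stimulation, the picture was uneven. JUND and JUN had per-kb levels of 4123 and 1358, whereas FOS had normalized counts of 79.5, 92.2 and 61.9, FOSB 15.7, 8.83 and 12 and EGR1 325, 236 and 249, and EGR3 had 1, 1 and 3 reads.

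In the PI3K, AKT and mTOR list 21 of 22 genes were above the limit. EIF4EBP1, the translation repressor that mTOR switches off, had a per-kb level of 2405 ± 95 (SD, n = 3), and RHEB, the GTPase that activates mTOR, 1873 ± 93 (SD, n = 3). PIK3CA had normalized counts of 895, 953 and 1087 and PIK3CG, a leukocyte isoform, 2, 7 and 13 reads. All 18 genes of the TGF-beta pathway were above the limit. The ligand TGFB1 had a per-kb level of 1428 ± 57 (SD, n = 3), TGFB2 949 ± 98 (SD, n = 3) and the receptor TGFBR2 1028 ± 78.4 (SD, n = 3), while TGFB3 had 15.3 ± 0.0895 (SD, n = 3).

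Most genes of the cell cycle lists were above the limit. CDKN1A, the CDK inhibitor p21, had normalized counts of 1314, 1234 and 1303, and PMAIP1, which encodes the death protein NOXA, had a per-kb level of 2901 ± 83.2 (SD, n = 3). All 24 proliferation genes were at a mean of at least 1000, with a median per-kb level of 1310.5 and a median CV of 4.04%. Of the 26485 genes of the table, 6946 were at that mean. PCNA, the clamp of replicating polymerases, led with a per-kb level of 7186 ± 351 (SD, n = 3), followed by TYMS, UBE2C, CCNB1, TPX2 and TOP2A. MKI67, the proliferation antigen, had normalized counts of 13088, 11748 and 15058. Of 22 regulators of the G1 phase, 19 were above the limit, with per-kb levels of 4014 ± 81.1 (SD, n = 3) for CCND1, 2028 ± 133 (SD, n = 3) for its kinase CDK4 and 478 ± 66.8 (SD, n = 3) for their target RB1. The 3 below the limit were CCND2, with 7, 7 and 10 reads, and the neighbours CDKN2A and CDKN2B.

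CDKN2A, at chr9:21967752-21995301 of GRCh38, encodes the CDK4 inhibitor p16 and the protein p14ARF, and it had 1, 0 and 1 reads in the 3 libraries. CDKN2B, its neighbour, had 0, 0 and 2. The genes around them were silent as well. From HACD4 to IZUMO3, a stretch of 3.55 Mb at chr9:20999509-24545946, 29 genes of the table were counted, of which 0 were above the limit and 19 had 0 reads in all 3 libraries. Together these 29 genes had 2, 0 and 18 reads. NS 3 held most of the few reads there were. 17 of the 29 are interferon genes, counting the pseudogene IFNA22P, and interferon genes are silent in most resting cells. Other genes of the stretch were near 0 too. MTAP, a methionine salvage enzyme that most tissues express, had 0, 0 and 1 reads, KLHL9, a ubiquitin ligase adaptor, 1, 0 and 3, and HACD4 0, 0 and 2.

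Genes on both sides of the stretch were read, though not all of them. Toward the telomere of the short arm, FOCAD had 102, 147 and 148 reads, MLLT3 669, 706 and 798 and the ribosomal protein gene RPS6 22450, 24027 and 21500. Toward the centromere, TUSC1 had 563, 561 and 567 reads, CAAP1 1317, 1531 and 1568 and PLAA 2213, 2289 and 2460. Some flanking genes were near 0 as well. SLC24A2, on the telomere side, had 3, 2 and 2 reads. On the centromere side TEK had 2, 9 and 3, and LRRC19, EQTN and IFNK had 0. The boundaries of the stretch were chosen after these values were seen. Across the genome, 46 runs of at least 10 neighbouring protein-coding genes were below the limit. The largest by number of genes held 63, over 9.02 Mb of chromosome 11 rich in olfactory receptor genes. The stretch on chromosome 9 held 24 protein-coding genes over 3.55 Mb. Why its genes were silent was not tested. Copy number was not measured here.

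**Figure D4:**
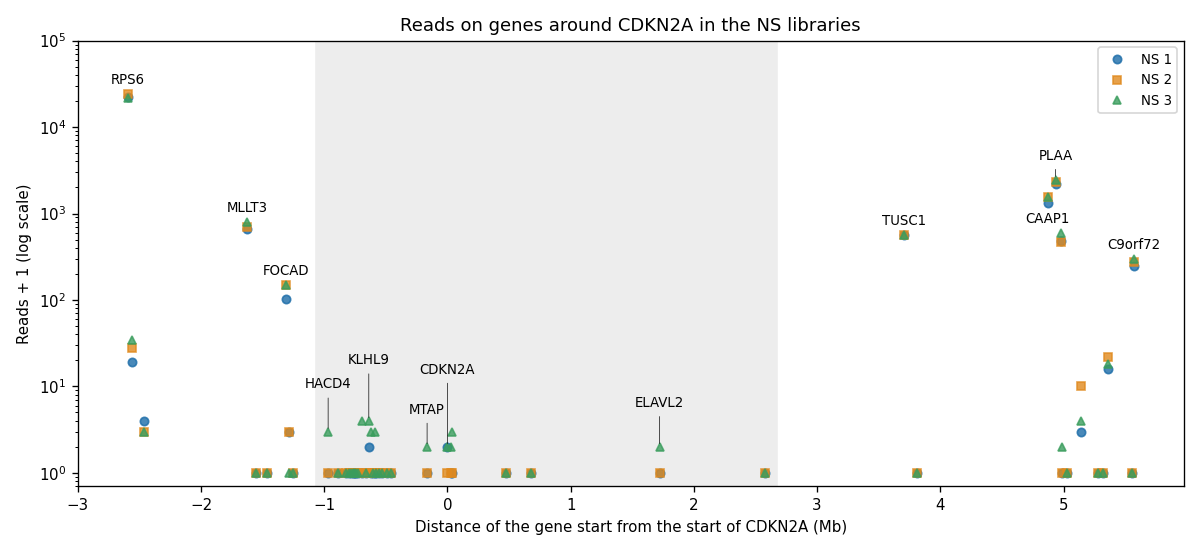
Reads plus 1 (vertical axis, log scale) on each gene of the table from RPS6 to C9orf72, against the distance of the gene's start from the start of CDKN2A in Mb (horizontal axis), in NS 1 (blue circles), NS 2 (orange squares) and NS 3 (green triangles). In the shaded stretch from HACD4 to IZUMO3 no gene has more than 3 reads in a library, while RPS6, MLLT3 and FOCAD on one side and TUSC1, CAAP1 and PLAA on the other have 102 or more. Other flanking genes, such as SLC24A2 and EQTN, have few or no reads.

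ASAH1, the gene that the series targets, had normalized counts of 4436, 4512 and 4518 in these control cells, a CV of 1.01% and a per-kb level of 292 ± 2.95 (SD, n = 3). It splits ceramide into sphingosine and fatty acid at acid pH. Of 40 genes of ceramide and sphingosine metabolism, 34 were above the limit. The other ceramidases were lower, with normalized counts of 1475, 1487 and 1681 for the alkaline enzyme ACER3 and 18.8, 26.5 and 30.5 for ACER2, while neutral ASAH2 had 5, 4 and 6 reads and ACER1 0. PSAP led the list with a per-kb level of 16780 ± 729.5 (SD, n = 3), followed with exon length by DEGS1, which makes ceramide from dihydroceramide (3466 ± 62.4 (SD, n = 3)), CERS2, the synthase of very long chain ceramides (2470.4 ± 87.8 (SD, n = 3)), UGCG, which adds glucose to ceramide (2470.1 ± 61.7 (SD, n = 3)), and SMPD1, acid sphingomyelinase (1118 ± 55.6 (SD, n = 3)). With the canonical transcript, ASAH1 reached 1615, since its annotated exons add up to 15378 bases, and stood above SMPD1 (1272), and CERS2 (4938) stood above DEGS1 (4172). Of the sphingosine kinases, SPHK2 had a mean normalized count of 1243 ± 82 (SD, n = 3) and SPHK1 of 422 ± 80.5 (SD, n = 3). Among receptors of sphingosine-1-phosphate, S1PR2 had 187 ± 38.5 (SD, n = 3) and S1PR1 226 ± 28.9 (SD, n = 3). Their per-kb levels were 51.4 and 43.2 with exon length, and 51.4 and 81.3 with the canonical transcript.

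All 30 lysosome genes were above the limit, with a median per-kb level of 889.8, and 26 of them exceeded the median of all kept genes. CTSD led with a per-kb level of 24405 ± 1048 (SD, n = 3), ahead of CD63, NPC2 and CTSB. TFE3, a factor that drives lysosome genes, had a per-kb level of 1124 ± 47.1 (SD, n = 3) and its relative TFEB 62.8 ± 3.11 (SD, n = 3). Glycolysis was the list with the highest median mean among those of metabolism, 15268 normalized counts over its 24 of 27 genes above the limit. GAPDH had a per-kb level of 25313 ± 899.6 (SD, n = 3) and LDHA 12976 ± 560.4 (SD, n = 3), the latter 1.76 ± 0.184 (SD, n = 3) times that of LDHB. With the canonical transcripts LDHA was 2.05 times LDHB. The glucose transporter SLC2A1 had 2366 ± 35.7 (SD, n = 3).

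All 12 hypoxia genes were above the limit, and BNIP3, a mitophagy receptor, had a per-kb level of 2431 ± 42.7 (SD, n = 3). NDRG1, a stress-response gene, had the highest mean normalized count of the list, 23811 ± 437 (SD, n = 3), and stood above BNIP3 per kilobase with the canonical transcript. CA9, carbonic anhydrase 9, had normalized counts of 238, 275 and 211. All 18 sterol synthesis genes were above it, with per-kb levels from 83.4 for MVK to 1479.8 for FDPS. All 17 ATF4 targets were above it, led by DDIT4, an mTOR inhibitor (3414 ± 136 (SD, n = 3)), and PHGDH, the first enzyme of serine synthesis, had normalized counts of 61.7, 92.2 and 76.6. All 18 homologous recombination genes were above it, among them BRCA1 with normalized counts of 1284, 1460.3 and 1504 and BRCA2 with 613, 619 and 795. All 12 heat shock genes were at a mean of at least 1000, as were 6946 of the 26485 genes of the table.

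Antigen presentation genes were all above the limit, 22 of 22. B2M, the light chain of class I molecules, had a per-kb level of 13083 ± 771 (SD, n = 3), and HLA-B and HLA-C had 7820.3 and 5281, values that are uncertain because these genes differ between people and share reads. Class II genes, which are typical of antigen-presenting cells, were expressed too. HLA-DRA had normalized counts of 7461, 6719 and 6947 and CD74, the invariant chain, 22141, 21383 and 22534, while CIITA, their activator, had 563, 483 and 562. Among 14 checkpoint ligands 10 were above the limit. NT5E, the ectoenzyme CD73, had a per-kb level of 3879.8 ± 282 (SD, n = 3), CD47 916 ± 29.3 (SD, n = 3) and CD274, PD-L1, 157 ± 17.7 (SD, n = 3), whereas CD80 and VTCN1 had 0 reads. All 20 interferon-stimulated genes were above the limit, with BST2 at 5664 ± 703 (SD, n = 3) per kilobase and ISG15 at 2818 ± 538 (SD, n = 3), and with IFI44L at a mean normalized count of 16.5. The interferon genes of the chromosome 9 stretch, counting the pseudogene IFNA22P, had at most 3 reads in a library.

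The replicates were close for most genes. The median CV was 6.92%, with quartiles of 4.11% and 11.5%, and it fell with level, from 19.7% at means from 10 to 100 to 4.7% at 10000 or more. The biological coefficient of variation, the spread between libraries beyond counting error as edgeR estimates it, was 7.08%. It was 4.47% for NS 1 and NS 2 without NS 3, 8.81% without NS 2 and 7.23% without NS 1. NS 3 was thus the library that stood apart. Among the 11511 genes with a mean of at least 100, NS 3 was the library farthest from the median in 48.6%, NS 1 in 31.3% and NS 2 in 20%. For each pair of libraries, differences beyond 2-fold were found in at most 5 of these genes. The smallest CVs belonged to EIF2B4, a translation initiation factor subunit, with normalized counts of 1173, 1174 and 1173, and to E2F5, PHLDB1, MFGE8 and ZYG11A.

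The distance of NS 3 followed gene length. Among genes whose mean was 100 or more and whose annotated exons were under 1.5 kb, 87.6% were below their 3-library mean in NS 3, and the median deviations on the log2 scale were 0.09, 0.03 and -0.14 in NS 1, NS 2 and NS 3 (395 genes). Among genes with exons of 12 kb or more, 19.5% were below their mean in NS 3, and the median deviations were -0.06, -0.02 and 0.08 (1211 genes). The order of the libraries reversed between the short and the long genes, with NS 2 between the others in both. Some genes named above deviated in the same direction as their length class but further. On the same scale NS 3 deviated by -0.28 for TMSB10, -0.21 for S100A4 and 0.28 for EGFR. KRT5 (-0.59), with exons of 4133 bases, lay beyond the median deviation of any length class. KRT6A (-1.17), with exons of 2926 bases, had a mean of 49.8 and is in none of these classes. The class medians do not show how far single genes scatter. What set NS 3 apart was not tested.

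NS 2 stood apart in a second way. Of the 15 genes with the largest CV at a mean of at least 100, 10 were highest in NS 2. The first 5 were small structured RNAs that carry no poly(A) tail. RPPH1, the RNA of ribonuclease P, had normalized counts of 997, 3087 and 1053, and RMRP, its relative in mitochondrial RNA processing, 308, 1225 and 569.7. RN7SK, which holds back the elongation kinase P-TEFb, had 809, 2670.3 and 1042, RNU2-2P, a U2 spliceosomal RNA, 74.3, 206 and 70.2, and RN7SL1, the RNA of the signal recognition particle, 2211, 4879 and 2617. NS 2 was at least 1.5 times as high as either other library for each of these 5 RNAs. RNA45S5, the ribosomal RNA precursor, was also highest in NS 2, with 695, 872 and 420.1. The sources name both ribosomal RNA depletion and oligo-dT beads for these libraries, and the part of either in these values was not tested. The other genes among the 15 were NEU3, HACD2 and ZBED6, highest in NS 3, LENG9 and MIRLET7BHG, highest in NS 1, and JPX, TXNDC5, ADORA1 and AMY2B, highest in NS 2. HACD2, a fatty acid elongation enzyme, had normalized counts of 231, 257 and 451 and NEU3, a sialidase of gangliosides, 75.4, 102 and 166.

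A further group of genes that moved together between the libraries was muscle genes, found after the values were seen and set against a list of 37 sarcomeric and muscle genes written afterwards. MYH4, a fast skeletal myosin, had normalized counts of 5409, 4745 and 3109, ACTA1, skeletal actin, 4128, 3680.2 and 2255, and CKM, muscle creatine kinase, 1040.3, 979 and 585. All 3 were highest in NS 1 and lowest in NS 3. Of the 37 genes, 18 had a mean of at least 100, all of them lowest in NS 3. In 15 of these NS 3 was below 0.75 of NS 1, against 2.28% of all genes at that mean. Because the group was found from these same values, the excess describes it and is no test. MYH4 has exons of 6016 bases, in the class of 5 to 8 kb, whose median deviation in NS 3 was 0.03 on the log2 scale. ACTA1 and CKM, with 2381 and 1556 bases, are in the class of 1.5 to 3 kb, where that median was -0.07. The ratio of MYH1 to MYH4 in normalized counts was nearly fixed, 0.543, 0.566 and 0.551.

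Other genes of the sarcomere were not there at matching levels. TTN, titin, which every striated muscle expresses, had 7, 13 and 13 reads, NEB, nebulin, had normalized counts of 19.9, 10.8 and 25.9 and DES, desmin, 39.8, 43.2 and 18.5. Of the muscle-determining factors, MYOD1 had 0 reads in all 3 libraries and MYOG had 1, 0 and 1. Nonmuscle relatives of 3 of these genes were read at higher levels, ACTB for ACTA1, MYH9 for MYH4 and CKB for CKM. MYH4 was 9.92%, 8.31% and 5.22% of MYH9 in normalized counts, and ACTA1 was 2.22%, 2.08% and 1.34% of ACTB. CKM was a larger share of CKB, 46.5%, 45.1% and 29.5%. The longest run of identical bases between canonical transcripts was 17 bases for MYH4 and MYH9, 29 for CKM and CKB, 58 for ACTA1 and ACTB and 221 for MYH1 and MYH4. Values of MYH1 and MYH4 are uncertain between these close copies. Where their reads came from was not tested.

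**Figure D5:**
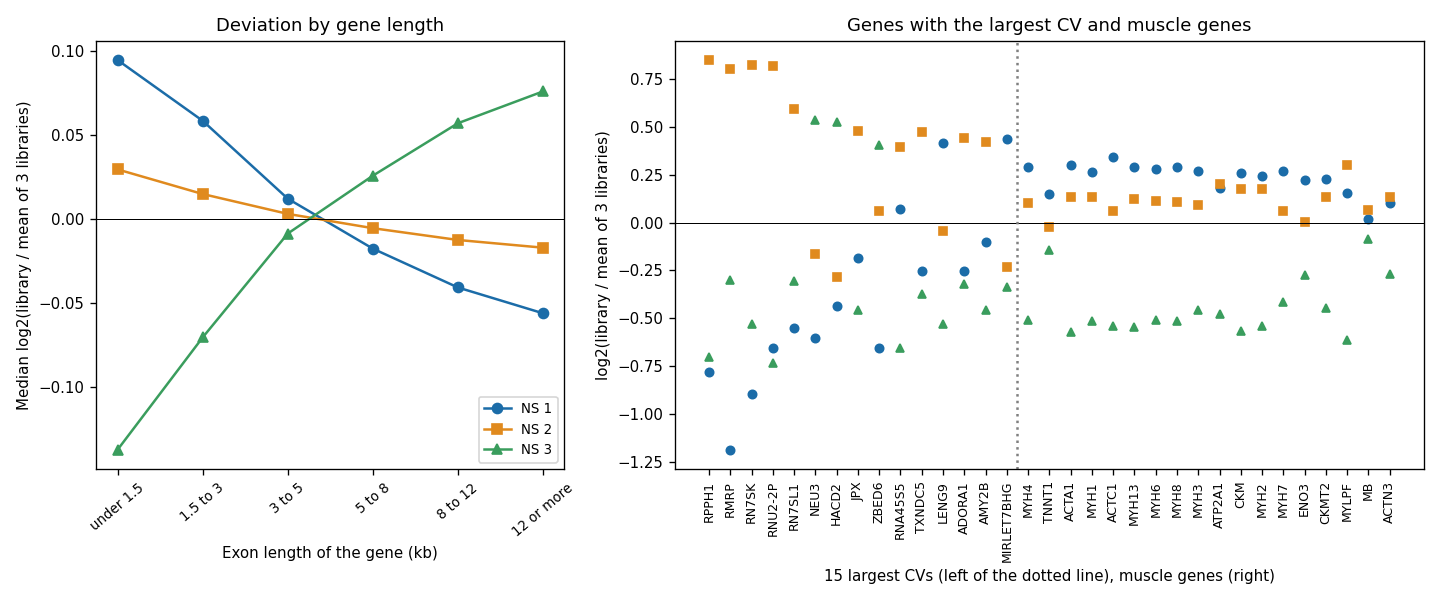
Left, median of log2(library / mean of the 3 libraries) on the vertical axis against exon length of the gene in kilobases, for genes whose mean is 100 or more; right, the same quantity for the 15 genes with the largest CV and, beyond the dotted line, for muscle genes, with NS 1 as blue circles, NS 2 as orange squares and NS 3 as green triangles. NS 3 runs from -0.14 for the shortest genes to 0.08 for the longest, NS 2 is highest for the first 5 RNAs on the right, and NS 3 is lowest for every muscle gene shown.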

How the data were processed

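Total RNA of MDA-MB-231 cells with a nonspecific shRNA was sequenced as 3 strand-specific libraries. The series describes ribosomal RNA depletion with random priming, whereas the extraction protocol names oligo-dT beads. Per the submitters' processing notes and the methods, the authors used Trimmomatic 0.36 for trimming, STAR 2.7.1a for alignment to hg38, HTSeq for counting and DESeq2 1.28 for normalization. The methods also mention RSEM after Bowtie2, and edgeR with TMM, in a different place. The deposited normalized counts are a signal, reads divided by a size factor, set separately for each ASAH1 hairpin with the NS libraries. The authors' log2 fold changes, p-values and Wald statistics (a score with no fixed range) compare the groups and were not used. Columns of single libraries left without a match numbered 0.

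The NS columns of the table with the first ASAH1 hairpin were used, and the hairpin columns only for the values given under other observations. Gene symbols that a spreadsheet had turned into dates (28) were taken from the other table, which has the same line order and the same NS reads. Each value was a whole number of reads times 1 step per library, so reads were recovered. Exon length is the union of annotated exons of GENCODE v44 on GRCh38; 13742 of 14140 kept genes matched by symbol or RefSeq synonym (97.2%), and the others have no per-kb level. The authors counted on UCSC genes, whose lengths were not used here. Upstream sequences are from RefSeq.

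The report describes 1 group, so no test was made; SDs are over 3 libraries. The biological coefficient of variation came from edgeR 4.0.16 in R 4.3.3 on the recovered reads with the authors' factors, and this step was tested on simulated data. Other steps used Python 3.11.15, pandas 2.3.3 and matplotlib 3.10.9. Named genes are the 25 highest by mean; ESR1, PGR, ERBB2, ASAH1, VIM and CDH1; from each of 41 lists up to 6 with the highest per-kb level and defining members below the limit; 46 nuclear receptors; and the 15 largest and 5 smallest CVs at a mean of at least 100. Other genes named, the muscle list, the chromosome 9 stretch and the promoters were chosen after values were seen. Some genes are not reported here and were left out of the lists and their counts. The genes and lists were chosen with earlier results of these data known. Alternatives were the other table's NS columns, TMM, equal totals, means of at least 50 and 1, each library left out, and other transcript lengths. Precision is limited by 3 libraries and, for genes with few reads, by counting error.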

Additional observations from a re-analysis of the deposited data

How the results depend on the processing

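With the NS columns of the other table, TMM scaling or equal totals, none of the 6 summary values reported moved by more than the spread between libraries or, for counts, by more than 1.5 times: the number of kept genes lay between 14140 and 14231, and 29 nuclear receptors stayed above the limit. A minimum of 50 gave 12299 genes and 25 receptors, and a minimum of 1 gave 17051 genes and 39 receptors. Leaving out 1 library at a time gave median CVs from 4.37% to 7.21% and biological coefficients of variation from 4.47% to 8.81%, the lowest of both without NS 3. The per-kb ratio of VIM to KRT18 was 4.36 with the longest transcript and 3.65 with the canonical transcript, an alternative added after seeing the data, and from 3.16 to 3.38 with 1 library left out. The median CV over protein-coding genes, also added after seeing the data, was 6.51%. Of 50 single genes, 28 had a mean that moved by more than their SD with the other table's factors and 10 with TMM. With the other table's factors the scale was higher in all 3 libraries. There 1 read counted as 1.129, 1.065 and 0.995, against 1.047, 0.981 and 0.923 in the values used. No paired analysis was possible because the values describe 1 group and come from no test. Per-kb orders depend on the annotation, and of the 25 highest genes per kilobase 17 were also among the 25 highest with canonical transcripts.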

Other observations

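The remaining lists of genes describe the culture further. All 15 genes often used as references for expression were above the limit, and their CVs ran from 0.479% to 13.6%. PGK1 had normalized counts of 40671, 40315 and 40361, TBP, the TATA-binding protein, 925, 876 and 906, and RPL13A, a ribosomal protein, 19343, 19668 and 15266. RPL13A and B2M were lowest in NS 3. Of 20 small noncoding RNAs without a poly(A) tail, 11 were above the limit, with a median CV of 67.3%, and their summed normalized counts were 7485, 16733 and 8333. Of 8 listed neighbours of CDKN2A, 0 were above the limit. Of 21 immediate early genes, 19 were above it.

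SAA1, an acute-phase protein of the liver that inflammatory cytokines induce, had normalized counts of 11461, 11079 and 8370.3, and MT2A, a metal-binding protein, 17283, 17008 and 13745; both were lowest in NS 3. TNNT1, the slow skeletal troponin T, was the muscle gene nearest to even between the libraries among those above a mean of 1000, with 4728, 4187 and 3849 and a CV of 10.4%, and MB, myoglobin, had 227, 235 and 211. These 4 genes were chosen after their values were seen.

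The muscle genes and the small RNAs also differed between replicates with ASAH1 hairpins. MYH4 had normalized counts from 2198 to 3571 in the 3 libraries with the first hairpin and from 4441 to 7399.9 in those with the second, whose table was normalized separately. RPPH1 had 29169, 1693 and 1768 in the 3 libraries with the first hairpin and between 115 and 507 in those with the second. No hairpin was compared with the control for these genes.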
